A study of Caenorhabditis elegans with 12 samples.

Results

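The cytochrome P450 genes of *Caenorhabditis elegans* were taken from the expression table as every gene whose WormBase identifier maps to a protein-coding gene named cyp- with a number, a letter and a number. The rule found 74 genes among 46245 rows, 19664 of which are protein-coding in the annotation. They fall into 25 subfamilies, such as CYP33C and CYP13A, and 41 of them lie on chromosome V. Coordinates below are those of the WBcel235 assembly in Ensembl release 115. RNA came from whole animals of the first larval stage (L1), grown in synchrony and fed *E. coli* on NGM agar plates for 3 h. The wild type (WT) was the N2 strain, and the mutant carried the allele n771 of lin-52 on chromosome III. Each strain was given ultraviolet B light at 60 mJ/cm2 (UV) or a mock treatment, and animals were collected 6 h later, which gave 4 groups of 3 biological replicates, mock-treated and irradiated larvae of each strain (named N2 mock and N2 UV, and lin-52 mock and lin-52 UV, below). lin-52 encodes a subunit of the DREAM complex, a repressor of transcription, and the comparisons ask how the mutation and the UV dose change expression. As a check of the labels, lin-52 itself measured 20.4 to 27.6 FPKM in N2 mock, 6.94 to 7.58 in lin-52 mock, 32.9 to 35.8 in N2 UV and 10.5 to 11.7 in lin-52 UV, so the mutant libraries were below the N2 libraries at either treatment.

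Cytochromes P450 are heme enzymes that insert an oxygen atom into lipids, steroids and foreign compounds, with electrons supplied by NADPH-cytochrome P450 reductase (EMB-8 in the worm). Nematodes carry many P450 genes, often in tandem arrays of close copies, and several of them are expressed in the intestine and are induced by drugs and plant compounds. Others act on internal substrates, among them the polyunsaturated fatty acids that CYP-33E2 and CYP-29A3 turn into eicosanoids. DAF-9, the P450 that makes the hormone dafachronic acid, does not carry a cyp- name and is described with the partner genes.

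FPKM, the unit of the table, counts sequenced fragments relative to the transcript's length and to the fragments mapped in that library, so that levels of different genes can be set side by side. Levels below are FPKM after division by 1 size factor per library, and differences are log2 differences of FPKM + 0.5 with their standard error (SE), on which scale changes of low genes come out too small. A gene was called higher or lower at a limma p, adjusted by Benjamini-Hochberg over 12913 tested protein-coding genes, below 0.05. Of the 74 P450 genes, 50 had a mean of at least 1 FPKM over the 12 libraries and were tested. In 11 of the 50 at least 1 group had a mean under 1 FPKM, so that such a gene can have passed through the group where it was high. They were cyp-13A7, cyp-14A2, cyp-23A1, cyp-29A4, cyp-31A2, cyp-31A3, cyp-33C6, cyp-33D1, cyp-33D3, cyp-33E3 and cyp-35A5, and their calls below are given with this limit. Just inside the limit were cyp-31A2, cyp-31A3 and cyp-33C6, with means of 1.01, 1.07 and 1.11 FPKM, and just outside were cyp-34A1, cyp-25A1 and cyp-35A4, with 0.996, 0.94 and 0.92 FPKM. The depth planned for each sample, in units of 1e6 read pairs, was 25, and the FPKM values alone do not give the depth. Steps between low FPKM values placed the depth of the libraries between 0.936 and 1.279 of that of N2 mock 1, a narrow range. Since RNA came from whole larvae, fewer cells of a type and less RNA per cell cannot be told apart.

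The summed level of the 74 genes was 435.0 ± 4.7 FPKM (SD, n = 3) in N2 mock, 482.5 ± 15.6 in lin-52 mock, 693.3 ± 19.6 in N2 UV and 598.7 ± 14.5 in lin-52 UV. This was 0.0486 to 0.0848% of the FPKM of all protein-coding genes. cyp-33C8, cyp-14A5 and cyp-37B1 made up most of the gap between UV and mock libraries. Without those 3 genes the sums were 394.0 ± 2.87, 436.1 ± 15.1, 435.0 ± 6.96 and 406.5 ± 2.4 FPKM in the same order of groups, and N2 UV was level with lin-52 mock.

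**Figure D1:**
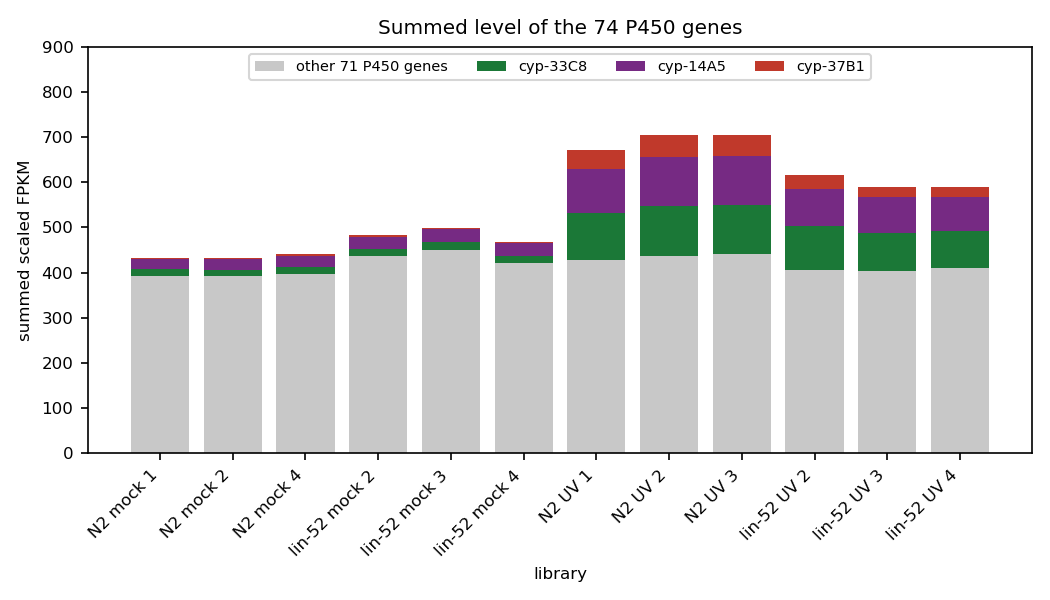
Stacked bars give the summed scaled FPKM of the 74 P450 genes in each of the 12 libraries, with cyp-33C8, cyp-14A5 and cyp-37B1 shown apart from the other 71 genes. The grey part stays between 392.1 and 451.0 FPKM in all libraries, while the coloured part widens in the UV libraries of both strains.

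The 5 P450 genes with the highest mean over the 12 libraries were cyp-14A5 (58.9 FPKM), cyp-33C8 (56.7), cyp-35A2 (29.7), cyp-37A1 (28.4) and cyp-34A9 (26.8). Their order differed between treatments. In mock libraries of both strains the leading genes were cyp-34A9, cyp-35A2 and cyp-13A2, and in every UV library cyp-33C8 and cyp-14A5 led. cyp-35A2 belongs to the CYP35A subfamily, which is known for its induction by foreign compounds. It measured 30.4, 31.7 and 33.7 FPKM in N2 mock, 30.3, 35.6 and 29.2 in lin-52 mock, 25.1, 26.4 and 28.8 in N2 UV and 23.1, 31.7 and 30.3 in lin-52 UV. The N2 UV libraries lay below the N2 mock libraries, those of lin-52 overlapped, and cyp-35A2 was called in no comparison.

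UV changed most of the tested P450 genes in N2, in either direction. Comparing N2 UV with N2 mock, 19 of 50 P450 genes were higher and 16 were lower, against 36.6% and 37% of all tested genes. In lin-52, 17 were higher and 18 lower, against 33.1% and 33.5% of all tested genes. These shares are close to the background, so the number of P450 genes called does not set them apart. A called difference of at least 2-fold was found for 14 P450 genes in N2 (9 higher and 5 lower, with 19% of all tested genes in either direction) and for 13 in lin-52 (7 higher and 6 lower, with 12.2%). Genes with a group mean under 1 FPKM are among them: cyp-13A7, cyp-14A2 and cyp-23A1 in both counts and cyp-33C6 in that of N2. Such genes can have passed the filter through the group where they were high, so these counts are not read as an excess over all genes. The median absolute UV effect of the 50 genes was 0.59 in N2 and 0.52 in lin-52 on the log2 scale, beside 0.47 and 0.37 over all tested genes. The signed medians were near zero, at 0.04 in N2 and -0.11 in lin-52. The comparisons within N2 and within lin-52 share no library. In both strains 17 P450 genes were higher and 15 lower (29.8% and 30.6% of all tested genes), and none was called in opposite directions (0.341% of all tested genes). Across the 50 genes, which are not independent replicates, the UV effects of the strains had a Pearson r of 0.98, and over all tested genes r was 0.915.

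**Figure D2:**
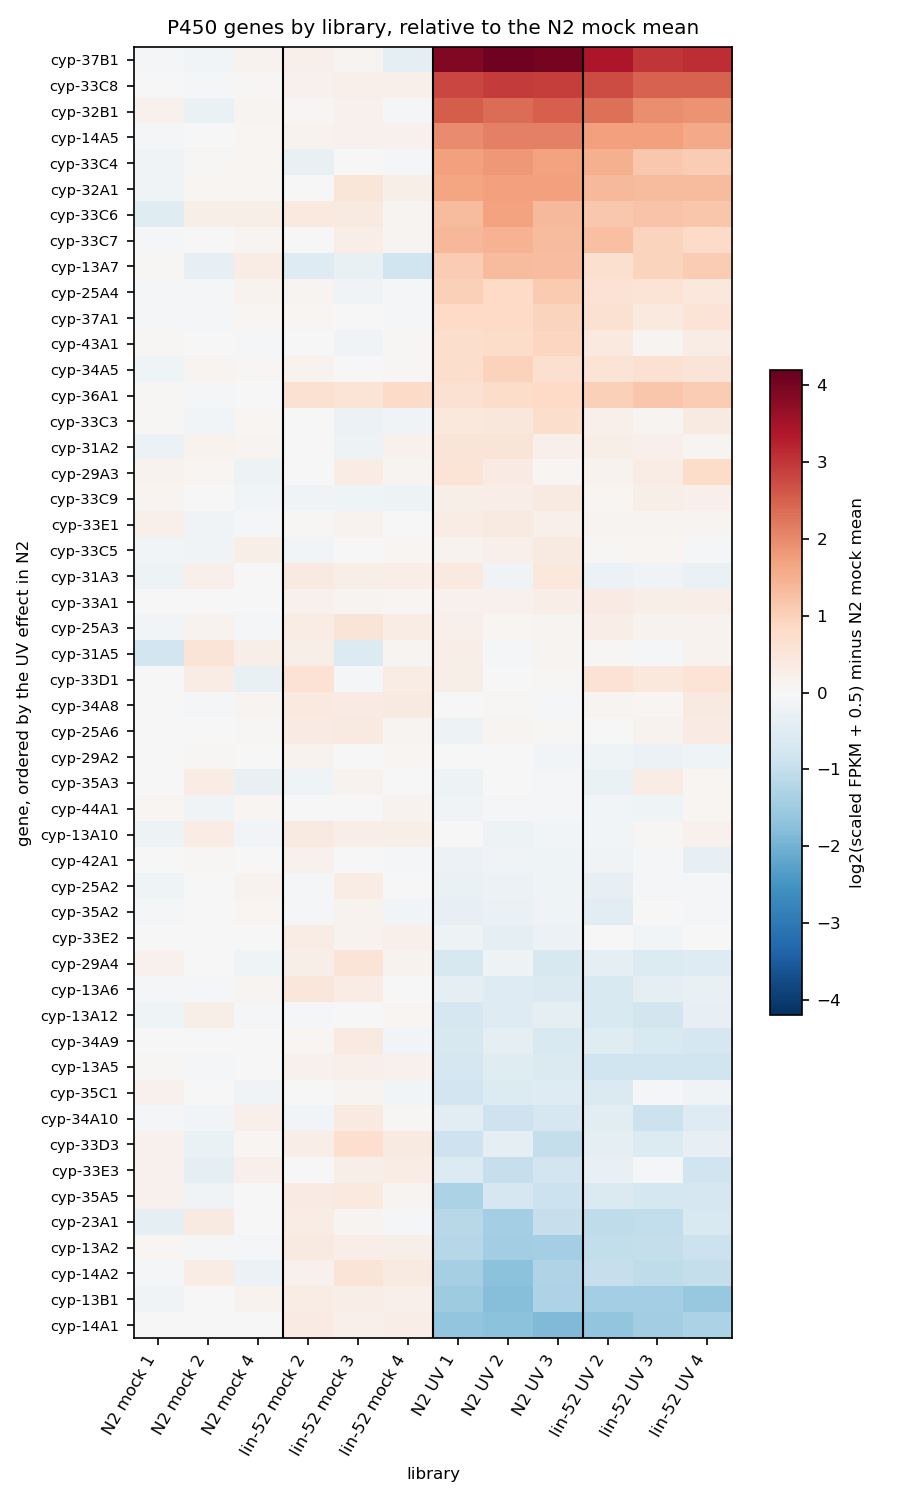
Each row is 1 of the 50 tested P450 genes and each column 1 library, and colour gives log2(scaled FPKM + 0.5) minus the mean of the 3 N2 mock libraries. Rows are ordered by the UV effect in N2, from cyp-37B1 at 4.0 to cyp-14A1 at -1.75, and the top rows are red and the bottom rows blue in the UV columns of both strains.

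The steepest rise was that of cyp-37B1 (chromosome V, 16278116 to 16280616), a relative of the CYP4 enzymes of mammals, which act on fatty acids. It measured 2.304, 2.13 and 2.702 FPKM in N2 mock and 42.1, 48.4 and 45.8 in N2 UV. In the mutant it measured 2.81, 2.62 and 1.64 FPKM without UV and 29.4, 22.4 and 24.01 after UV. The 4 groups fell into low mock values, intermediate lin-52 UV values and high N2 UV values, with no overlap between mock and UV or between the UV groups. The UV effect was 4.0 ± 0.16 in N2 (adjusted p = 1.02e-09) and 3.19 ± 0.16 in lin-52 (adjusted p = 9.71e-09). Its relative cyp-37A1 (chromosome II, 14013819 to 14016965) was far higher without UV, at 20.5, 20.8 and 22.8 FPKM in N2 mock and 22.4, 21.5 and 20.7 in lin-52 mock. After UV it measured 38.3, 38.4 and 41.6 FPKM in N2 and 33.3, 28.5 and 31.8 in lin-52. The UV ranges lay above the mock ranges in both strains, and the effects were 0.87 ± 0.06 and 0.52 ± 0.06 (adjusted p = 1.74e-07 and 2.04e-05).

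CYP33C was the subfamily in which most members rose. Of its 11 genes 7 were tested, and 6 of the 7 rose with UV in each strain, against 36.6% of all tested genes in N2 and 33.1% in lin-52. The 6 include cyp-33C6, which was under 1 FPKM in all mock libraries, and cyp-33C3, whose lin-52 call depended on single libraries. The summed level of the 11 genes went from 53.9 ± 1.05 FPKM (SD, n = 3) in N2 mock to 185 ± 5.87 in N2 UV, and from 54.2 ± 1.74 to 149 ± 13.1 in lin-52. Most of this was cyp-33C8 (chromosome V, 3800782 to 3803542), which measured 14.4, 13.8 and 14.7 FPKM in N2 mock and 104, 112 and 109 in N2 UV. In the mutant it went from 16.4, 16.8 and 16.6 FPKM to 97.8, 82.7 and 82.6. Mock and UV ranges stood far apart in both strains, and the library lin-52 UV 2 was the highest of its group. The UV effect was 2.88 ± 0.06 in N2 (adjusted p = 1.67e-11) and 2.36 ± 0.06 in lin-52 (adjusted p = 1e-10).

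A further 5 CYP33C genes form a tandem array on chromosome V between 2236140 and 2252591. In both strains 4 of them were called higher with UV, against 29.8% of all tested genes. The 4 include cyp-33C6 and cyp-33C3, whose calls have the limits given below, and neighbouring genes are not independent replicates. cyp-33C4 measured 4.21, 4.97 and 5.09 FPKM in N2 mock, 16.6, 17.9 and 16.5 in N2 UV, 3.74, 4.74 and 4.61 in lin-52 mock and 14.1, 11.1 and 10.4 in lin-52 UV. cyp-33C7, at the other end of the array, measured 9.18, 9.67 and 10.8 FPKM in N2 mock, 26.8, 27.7 and 25.3 in N2 UV, 9.88, 11.98 and 10.7 in lin-52 mock and 24.1, 19.4 and 17.8 in lin-52 UV. For either gene the UV libraries of a strain were above its mock libraries. The UV effects were 1.74 ± 0.12 in N2 and 1.34 ± 0.12 in lin-52 for cyp-33C4, and 1.39 ± 0.11 and 0.88 ± 0.11 for cyp-33C7 (adjusted p of at most 1.84e-05). cyp-33C6 was lower, at 0.122 to 0.674 FPKM in the mock and 1.46 to 2.34 in the UV libraries. With all mock values under 1 FPKM, it passed the filter only through the UV groups. Its effects of 1.46 ± 0.22 and 0.87 ± 0.22 (adjusted p = 8.38e-05 and 0.00427) are given with this limit and not as support. cyp-33C3 rose less, by 0.54 ± 0.12 in N2 and 0.36 ± 0.12 in lin-52 (adjusted p = 0.00144 and 0.0176). The lin-52 call of cyp-33C3 was lost without lin-52 mock 3 or lin-52 UV 4, with an adjusted p of up to 0.073. The remaining gene of the array, cyp-33C5, ranged from 2.46 to 3.73 FPKM over all libraries and was called in no comparison. cyp-33C9, outside the array, rose by 0.31 ± 0.07 and 0.36 ± 0.07 (adjusted p = 0.00115 and 0.000471).

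cyp-32B1 (chromosome V, 2197997 to 2201415) lies among CYP33C genes upstream of that array. It measured 3.05, 2.104 and 2.93 FPKM in N2 mock and 17.8, 15.4 and 17.4 in N2 UV, and 2.75, 3.08 and 2.56 in lin-52 mock and 15.1, 11.8 and 11.2 in lin-52 UV. The UV libraries were all above the mock libraries, with lin-52 UV 2 again the highest of the lin-52 UV libraries. The effect was 2.46 ± 0.14 in N2 and 1.99 ± 0.14 in lin-52 (adjusted p = 1.66e-08 and 1.52e-07). The other gene of that family, cyp-32A1 (chromosome V, 7781811 to 7784594), went from 3.69, 4.46 and 4.401 FPKM to 14.2, 15.1 and 14.8 in N2. In lin-52 it went from 4.11, 6.204 and 5.06 to 11.4, 11.2 and 11.3 FPKM. Mock and UV values did not overlap in either strain, and the effects were 1.70 ± 0.12 and 1.09 ± 0.12 (adjusted p = 9.55e-08 and 6.79e-06).

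cyp-14A5 (chromosome V, 5421018 to 5423282) rose while its relatives on chromosome X fell. It measured 23.01, 24.2 and 25.8 FPKM in N2 mock and 97.4, 108 and 108 in N2 UV, and 26.7, 27.7 and 27.9 in lin-52 mock and 81.7, 80.7 and 75.1 in lin-52 UV. The 3 libraries of each group lay close together, and no UV library reached down to the mock range. The UV effect was 2.08 ± 0.06 in N2 (adjusted p = 6.12e-11) and 1.51 ± 0.06 in lin-52 (adjusted p = 1.09e-09). In the X-linked array of 4 CYP14A genes, cyp-14A1 (chromosome X, 13265041 to 13267355) measured 6.97, 7.1 and 7.0 FPKM in N2 mock, 1.89, 1.78 and 1.57 in N2 UV, 9.13, 8.23 and 8.62 in lin-52 mock and 1.897, 2.25 and 2.504 in lin-52 UV. cyp-14A2, its neighbour (chromosome X, 13267562 to 13269686), measured 2.69, 3.71 and 2.35 FPKM in N2 mock, 0.785, 0.522 and 0.894 in N2 UV, 3.34, 4.41 and 3.83 in lin-52 mock and 1.21, 1.104 and 1.202 in lin-52 UV. For this pair every UV library was below every mock library. cyp-14A1 changed by -1.75 ± 0.10 in N2 and -1.76 ± 0.10 in lin-52, and cyp-14A2 by -1.46 ± 0.18 and -1.38 ± 0.18 (adjusted p of at most 2.68e-05). The remaining array members, cyp-14A3 and cyp-14A4, stayed below 1 FPKM in every library.

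**Figure D3:**
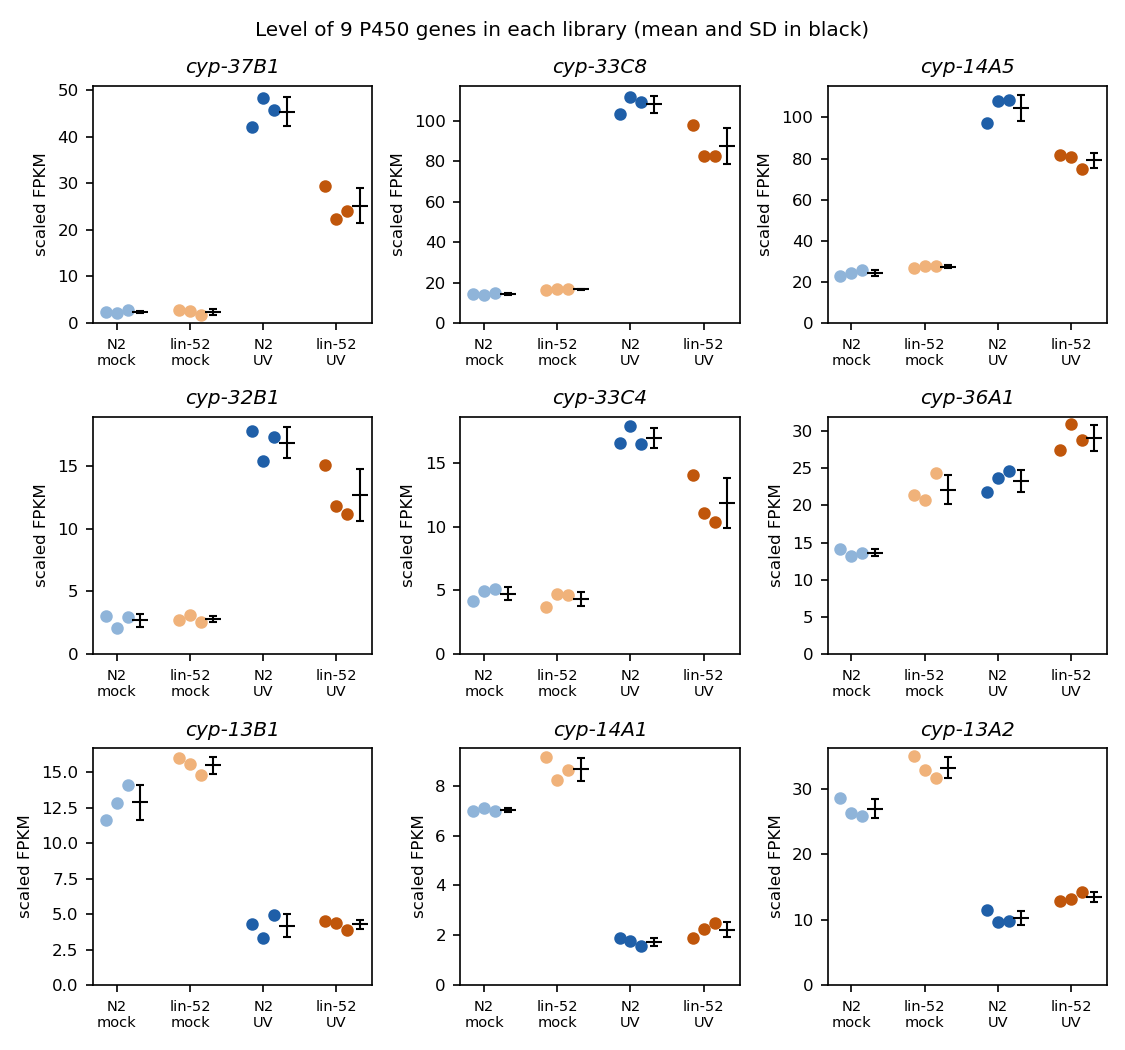
Points give the scaled FPKM of 9 P450 genes in each library by group, and the black bar beside them the mean with its SD (n = 3). cyp-37B1, cyp-33C8, cyp-14A5, cyp-32B1 and cyp-33C4 are higher after UV and lower in lin-52 UV than in N2 UV, cyp-36A1 is higher in lin-52 at either treatment, and cyp-13B1, cyp-14A1 and cyp-13A2 are lower after UV.

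The CYP13A array on chromosome II, 9779181 to 9807569, holds 8 genes that moved in different directions. Of the 4 tested, cyp-13A2, cyp-13A5 and cyp-13A6 fell and cyp-13A7 rose in both strains. cyp-13A7, known as inducible by rifampicin, measured 1.39, 0.925 and 1.74 FPKM in N2 mock, 3.31, 4.103 and 3.97 in N2 UV, 0.756, 0.973 and 0.5302 in lin-52 mock and 2.38, 3.001 and 3.27 in lin-52 UV. The UV values were all above the mock values, and the effects were 1.23 ± 0.20 and 1.44 ± 0.20 (adjusted p = 0.000125 and 4.63e-05). cyp-13A2 (chromosome II, 9783384 to 9787629) went from 28.6, 26.2 and 25.9 FPKM to 11.5, 9.56 and 9.72 in N2, and from 34.9, 32.9 and 31.7 to 12.8, 13.1 and 14.2 in lin-52. Its mock and UV ranges stood apart, with effects of -1.35 ± 0.07 and -1.28 ± 0.07 (adjusted p = 1.39e-08 and 3.78e-08). cyp-13A5 (chromosome II, 9798277 to 9800362) went from 24.6, 22.5 and 23.6 FPKM to 14.2, 16.4 and 15.3 in N2 and from 26.8, 27.5 and 26.7 to 13.1, 13.1 and 12.8 in lin-52. Here the mock values of lin-52 were above those of N2 and the UV values of lin-52 below those of N2. The UV effects of cyp-13A5 were -0.61 ± 0.05 and -1.03 ± 0.05 (adjusted p = 1.02e-06 and 1.98e-08), and those of cyp-13A6 were -0.52 ± 0.13 and -0.72 ± 0.13 (adjusted p = 0.00325 and 0.000379).

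Outside that array, cyp-13B1 (chromosome X, 13406674 to 13409643) was among the steepest falls. It measured 11.6, 12.8 and 14.1 FPKM in N2 mock and 4.28, 3.34 and 4.93 in N2 UV, and 15.99, 15.6 and 14.8 in lin-52 mock and 4.503, 4.404 and 3.89 in lin-52 UV. No UV library overlapped a mock library, and the effects were -1.52 ± 0.12 in N2 and -1.75 ± 0.12 in lin-52 (adjusted p = 2.69e-07 and 1.33e-07). cyp-13A12, a gene regulated by the oxygen-sensing factor HIF-1 and tied to the behaviour of worms on reoxygenation, measured 2.09 to 3.02 FPKM in the mock and 1.21 to 1.83 in the UV libraries. The UV effects were -0.55 ± 0.16 in N2 and -0.59 ± 0.16 in lin-52, with no overlap between the treatments (adjusted p = 0.00828 and 0.00644). cyp-23A1 measured 1.78 to 3.38 FPKM in the mock and 0.598 to 1.41 in the UV libraries, with an N2 UV mean of 0.819. It changed by -1.18 ± 0.22 in N2 and -1.05 ± 0.22 in lin-52 (adjusted p = 0.00039 and 0.00111). With a group mean under 1 FPKM, these effects are given with the limit stated at the start.

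The tested genes of the CYP34A and CYP35 subfamilies mostly fell with UV or were not called. Of the 18 genes of these subfamilies, tested or not, 10 form an array on chromosome V, 3936326 to 3972991, and 5 of the 10 were tested. Among the untested genes, cyp-34A2, cyp-34A7 and cyp-35B2 had UV libraries above the mock libraries of their strain. cyp-35B2 stayed under 1 FPKM in every library. Untested cyp-34A6, cyp-35A4 and cyp-35D1 had UV libraries below mock in lin-52, with overlap in N2. cyp-34A9, which is known as a target of the insulin-pathway factor DAF-16, measured 32.2, 30.8 and 31.6 FPKM in N2 mock, 19.4, 23.9 and 20.01 in N2 UV, 33.2, 40.8 and 29.1 in lin-52 mock and 21.8, 19.9 and 19.3 in lin-52 UV. All UV libraries were below all mock libraries, with effects of -0.57 ± 0.11 and -0.73 ± 0.11 (adjusted p = 0.000517 and 9.77e-05). cyp-35A5, with an N2 UV mean of 0.887 FPKM, had effects of -0.99 in N2 and -0.96 in lin-52, and cyp-34A10 of -0.67 and -0.73. cyp-34A5 rose by 0.78 in N2 and 0.51 in lin-52 (adjusted p of at most 0.00736 for these 3 genes). Outside that array, cyp-35C1 ranged from 13.2 to 16.7 FPKM in the mock libraries. Its UV effect was -0.63 ± 0.14 in N2 (adjusted p = 0.00135) and -0.27 ± 0.14 in lin-52 (adjusted p = 0.109), and these effects were not shown to differ (interaction adjusted p = 0.255). cyp-35A2 and cyp-35A3, also outside it, did not pass the test in either strain.

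Smaller UV effects in both strains were rises of cyp-25A4 (0.99 in N2 and 0.58 in lin-52), cyp-43A1 (0.81 and 0.32), cyp-36A1 (0.75 and 0.39) and cyp-33A1 (0.21 and 0.16). cyp-33A1 lost its call in lin-52 without lin-52 mock 4 or lin-52 UV 2, with an adjusted p of up to 0.06. cyp-33E2, an enzyme of eicosanoid synthesis, fell with effects of -0.29 and -0.26. cyp-33D3, cyp-33E3 and cyp-29A4, with group means between 0.711 and 2.41 FPKM, fell as well, with effects of -0.78 to -0.52 in N2 and -0.88 to -0.59 in lin-52. cyp-29A4 lost its N2 call without N2 mock 1, N2 UV 1 or N2 UV 3 (adjusted p of up to 0.08), and cyp-33E3 its lin-52 call without lin-52 mock 3, lin-52 mock 4, lin-52 UV 2, lin-52 UV 4 or N2 UV 3 (up to 0.168 over all alternatives). Called in N2 alone were 3 genes and in lin-52 alone 3 genes, against 12.9% and 5.86% of all tested genes. Those were, besides cyp-35C1, rises of cyp-31A2 and cyp-33E1 in N2 and falls of cyp-29A2, cyp-31A3 and cyp-42A1 in lin-52, and for none of these 6 did the interaction pass (adjusted p of 0.0521 to 0.863). Of these, cyp-31A2 lost its call without any of 8 single libraries, cyp-42A1 of 8 and cyp-31A3 of 5, with an adjusted p of up to 0.222, 0.17 and 0.0803. cyp-31A2 and cyp-31A3 act in the making of the eggshell and are near-identical copies, so that their separate values, 0.627 to 1.47 and 0.693 to 1.48 FPKM, are uncertain.

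P450 genes called in no comparison were cyp-13A10, cyp-25A2, cyp-25A6, cyp-29A3, cyp-31A5, cyp-33C5, cyp-33D1, cyp-35A2, cyp-35A3 and cyp-44A1, 10 of the 50. The same share was not counted over all tested genes. For UV against mock, 12 of the 50 were called in neither strain, against 20.5% of all tested genes. cyp-44A1 encodes the mitochondrial P450 of the worm, and its level ranged from 8.12 to 10.3 FPKM over the 12 libraries. cyp-29A3, which acts with CYP-33E2 on eicosapentaenoic acid, ranged from 1.56 to 3.59 FPKM.

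Without UV, 4 P450 genes were higher in lin-52 than in N2 and none was lower, against 3.59% and 1.74% of all tested genes. At an unadjusted limma p below 0.05 the counts were 13 higher and 2 lower, against 8.3% and 9.82% of all tested genes. No difference reached 2-fold (1.11% of all tested genes). cyp-36A1 (chromosome I, 8341682 to 8346023), which acts below the EGL-9 and HIF-1 oxygen-sensing pathway, measured 14.1, 13.2 and 13.6 FPKM in N2 mock and 21.4, 20.7 and 24.3 in lin-52 mock. The ranges stood apart (adjusted p = 8.57e-05), and its call held under every alternative tried. cyp-25A3 (6.62, 7.99 and 6.88 FPKM in N2 mock and 9.02, 10.7 and 8.93 in lin-52 mock) was higher by 0.39 ± 0.09 (adjusted p = 0.0285). cyp-34A8 (6.602, 6.26 and 7.37 and 9.07, 8.59 and 8.83 FPKM) was higher by 0.37 ± 0.09 (adjusted p = 0.03), and cyp-13A2, given above, by 0.30 ± 0.07 (adjusted p = 0.0411). For these 3 genes the lin-52 mock libraries were above the N2 mock libraries, with little room between the ranges. Their calls depended on single libraries: the count of 4 fell to 1 without N2 mock 1, lin-52 mock 2 or lin-52 mock 3, and to 2 without N2 mock 4 or lin-52 mock 4. Of all tested genes 2.7 to 3.3% were higher and 0.674 to 1.31% lower in these fits. Over the alternatives the adjusted p reached 0.134 for cyp-25A3, 0.11 for cyp-34A8 and 0.14 for cyp-13A2. When FPKM were used as deposited 5 P450 genes were higher and none lower, against 4.19% and 0.843% of all tested genes, and with libraries set to an equal sum of FPKM 6 were higher and none lower, against 4.44% and 0.719%.

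Small differences in the same direction were common in that comparison. The median over the 50 P450 genes, which are not independent replicates, was 0.13 on the log2 scale, beside -0.02 over all tested genes. In 14 P450 genes the lin-52 mock libraries were all above the N2 mock libraries, and in 1 they were all below, against 10.2% and 14.1% of all tested genes. Of the marker lists, that of the germline had 3 of 9 tested genes higher in lin-52 mock, against 3.59% of all tested genes. It summed to 161 to 169 FPKM there against 103 to 107 FPKM in N2 mock. The intestine list without vha-6 summed to 6320 to 6720 FPKM in N2 mock and 6060 to 6230 in lin-52 mock, with 1 of 12 tested genes lower, against 1.74% of all tested genes. Most of that sum came from asp-1 (means of 3419 FPKM in N2 mock and 3160 in lin-52 mock) and spp-5 (1581 and 1429). Of the tested intestine genes, elt-2, ges-1 and cpr-1 had higher means in lin-52 mock, without a call, and the others lower means. The part of these tissues in the P450 differences was not tested.

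After UV, the P450 genes that differed between the strains were mostly lower in lin-52. Of the 50 genes 12 were lower and 3 were higher in lin-52 UV than in N2 UV, against 15.2% and 13% of all tested genes. None differed by 2-fold (1.44% of all tested genes). The largest differences were those of cyp-37B1 (-0.84 ± 0.16, adjusted p = 0.00244), cyp-43A1 (-0.53 ± 0.08, adjusted p = 0.000955), cyp-33C4 (-0.51 ± 0.12, adjusted p = 0.00843) and cyp-25A4 (-0.46 ± 0.10, adjusted p = 0.00538). cyp-43A1 (chromosome X, 5714522 to 5717562) measured 21.7, 22 and 24.1 FPKM in N2 UV and 17.04, 13.7 and 15.9 in lin-52 UV, from 13.3, 12.7 and 12.1 in N2 mock and 12.55, 11.3 and 13.1 in lin-52 mock. The lin-52 UV libraries lay between the mock libraries and N2 UV. For cyp-25A4 the values were 12.5, 11.1 and 13.4 FPKM in N2 UV and 9.26, 8.99 and 8.22 in lin-52 UV, with 5.74, 5.51 and 6.604 in N2 mock and 6.41, 5.302 and 5.52 in lin-52 mock. Again lin-52 UV was intermediate and the mock groups overlapped.

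The other genes lower in lin-52 UV were cyp-32B1 (-0.41), cyp-14A5 (-0.40), cyp-33C7 (-0.38), cyp-32A1 (-0.36), cyp-37A1 (-0.34), cyp-33C8 (-0.31), cyp-13A5 (-0.23) and cyp-29A2 (-0.18), as log2 differences. The 3 higher in lin-52 UV were cyp-13A2 (0.37 ± 0.07), cyp-36A1 (0.31 ± 0.07) and cyp-33E2 (0.26 ± 0.07). cyp-36A1 measured 21.7, 23.6 and 24.6 FPKM in N2 UV and 27.5, 31 and 28.8 in lin-52 UV, so that lin-52 was above N2 at either treatment with no overlap. Of these 15 calls 9 held under every alternative. cyp-33C7 and cyp-29A2 lost their calls without N2 UV 1, N2 UV 2, lin-52 UV 3 or lin-52 UV 4 (adjusted p of up to 0.0865 and 0.0959), and cyp-33E2 without N2 UV 2 or lin-52 UV 4 (up to 0.0636). cyp-32A1 lost its call without any of the 6 UV libraries or lin-52 mock 4 (up to 0.107), and cyp-32B1 without any of 9 of the 12 libraries (up to 0.176). cyp-13A5 reached 0.0522 when only the UV libraries were fitted. In 14 of the 15 genes lin-52 UV 2 was the lin-52 UV library closest to the N2 UV mean. The same count was not made over all called genes, so it is not read as a trait of the P450 genes. Without lin-52 UV 2, 16 P450 genes were called, 11 lower and 5 higher, against 16.1% and 14.3% of all tested genes. When FPKM were used as deposited the 15 calls became 9 lower and 5 higher, against 11.2% lower and 16.3% higher of all tested genes. With libraries set to an equal sum of FPKM they were 8 lower and 6 higher, against 9.72% and 17.4%, so that under either scaling more of all genes were higher than lower in lin-52 UV.

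The UV effect itself differed between the strains in 8 P450 genes by the interaction test, all with a more negative effect in lin-52, against 6.2% of all tested genes, and none had a more positive effect in lin-52 (5.44%). At an unadjusted limma p below 0.05 the counts were 15 more negative and 0 more positive, against 13.9% and 13.5% of all tested genes. The test uses the same libraries as the comparisons above. The differences, lin-52 minus N2, were -0.81 ± 0.22 for cyp-37B1, -0.61 ± 0.17 for cyp-32A1, -0.57 ± 0.08 for cyp-14A5, -0.51 ± 0.09 for cyp-33C8, -0.49 ± 0.12 for cyp-43A1, -0.36 ± 0.10 for cyp-36A1 and -0.35 ± 0.09 for cyp-37A1 (adjusted p of 0.00223 to 0.0383). These 7 genes rose with UV in both strains, and they rose less in lin-52. The remaining gene, cyp-13A5, fell in both strains and fell more in lin-52, with a difference of -0.42 ± 0.08 (adjusted p = 0.00835). The median interaction over the 50 P450 genes was -0.16, beside 0.000317 over all tested genes, and 36 of the 50 were below zero, against 49.9% of all tested genes. A smaller rise in lin-52 was general among rising genes: of the genes called higher with UV in N2, the interaction was below zero in 17 of 19 P450 genes (89.5%, median -0.40) and in 80.7% of all 4724 genes (median -0.165). Of the genes called lower with UV in N2, it was below zero in 9 of 16 P450 genes (56.2%, median -0.0237) and in 20.3% of all 4782 genes (median 0.136). These genes were chosen on N2 libraries that also enter the interaction.

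The calls of cyp-14A5, cyp-33C8 and cyp-13A5 held under every alternative tried. The other 5 were lost in at least 5 alternatives, most of which left out a library, with an adjusted p of at most 0.091. The count of 8 went to 4 without N2 mock 2, lin-52 mock 2, N2 UV 3 or lin-52 UV 4, against 3.5 to 4.56% lower and 2.87 to 3.68% higher of all tested genes. It went to 5 without N2 mock 1, N2 mock 4, lin-52 mock 4, N2 UV 2 or lin-52 UV 3, against 3.52 to 4.69% lower and 3 to 3.57% higher. Without lin-52 UV 2 it was 11, with 10 lower and 1 higher, against 8.78% and 8.15% of all tested genes, so the calls over all genes rose as well.

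**Figure D4:**
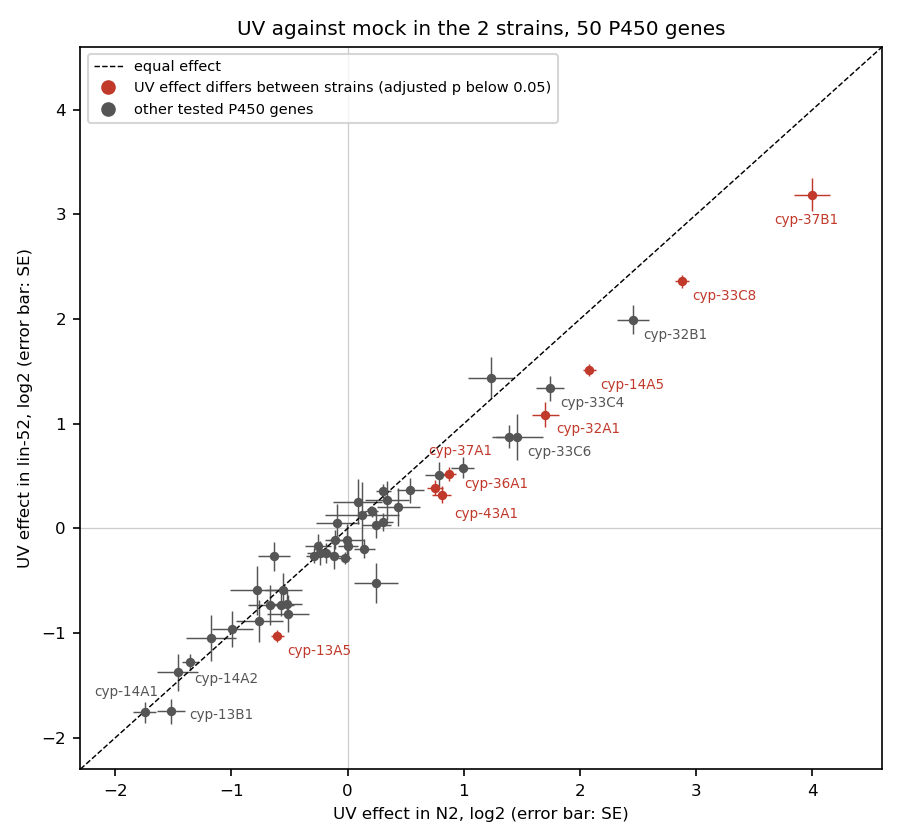
The UV effect in lin-52 (vertical axis) is plotted against that in N2 (horizontal axis) for the 50 tested P450 genes, as log2 differences with SE bars, and the dashed line marks equal effects. The 8 red genes passed the interaction test, and 7 of them lie below the line on the side of rising genes, led by cyp-37B1 at 4.0 in N2 and 3.19 in lin-52.

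Of the 24 P450 genes under the limit of 1 FPKM, 10 reached 1 FPKM in at least 1 library and 14 in none. cyp-34A2 measured 0.1596, 0.261 and 0.0972 FPKM in N2 mock, 1.36, 1.49 and 1.04 in N2 UV, 0.195, 0.684 and 0.349 in lin-52 mock and 1.27, 0.964 and 1.096 in lin-52 UV, so its UV libraries were all above its mock libraries. cyp-13A4, in the CYP13A array, measured 0.474 to 1.03 FPKM in the mock and 0.0883 to 0.237 in the UV libraries, with no overlap in the other direction. cyp-34A7 ranged from 0.225 to 0.767 FPKM in mock and 0.755 to 1.35 in UV libraries, and in each strain its UV libraries were above its mock libraries, although the lowest N2 UV value lay below the highest lin-52 mock value. The other 7 were cyp-25A1, cyp-33C11, cyp-33C12, cyp-34A1, cyp-34A6, cyp-35A4 and cyp-35D1, the last of which is known for the metabolism of thiabendazole. Their highest values lay between 1.07 and 1.72 FPKM. Values of exactly 0 occurred in 5 of the 74 genes, none of them tested, and cyp-35B3 was listed at 0 in 11 libraries. No test was made on these 24 genes.

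Another protein-coding gene overlaps 8 of the 74 genes, 7 times on the opposite strand. The libraries were stranded, but whether strand was used in estimating FPKM is not given in the sources used here. cyp-37B1 shares 69 bases with F28G4.2 on the opposite strand, which had a mean of at most 0.0582 FPKM in any group, far below cyp-37B1. cyp-36A1 shares 147 bases with figo-1, which changed with UV by -0.20 in N2 and -0.29 in lin-52 while cyp-36A1 rose, and which gave 0.07 between the strains without UV (adjusted p = 0.554). cyp-43A1 shares 25 bases with C41G11.1, which measured 1.95 FPKM in N2 mock and 0.77 in N2 UV, and cyp-37A1 shares 28 bases with F01D5.8, which rose with UV by 0.35 and 0.31. cyp-44A1 overlaps npp-24 by 106 bases on the same strand. Genes of the tandem arrays can also share reads through their likeness to each other, and this was not examined.

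Electron donors of P450 enzymes changed in different directions with UV. emb-8, the P450 reductase, measured 90.1, 85.9 and 86.7 FPKM in N2 mock and 65.4, 61.95 and 64.3 in N2 UV, and 91.6, 84.8 and 87.2 in lin-52 mock and 66.3, 65.1 and 67.1 in lin-52 UV. The UV libraries were below the mock libraries in both strains, with effects of -0.45 ± 0.04 and -0.41 ± 0.04 (adjusted p = 4.74e-07 and 1.79e-06). Of the cytochrome b5 genes, cytb-5.1 fell, with effects of -0.89 and -0.73, and cytb-5.2 rose, with 0.82 and 0.69. Between the strains only cytb-5.2 was called, lower in lin-52 UV with a log2 difference of -0.16 (adjusted p = 0.0238). daf-9 was not tested, with group means of 0.739 to 1.06 FPKM. Among the other genes of the dafachronic acid route, 5 of 7 were tested. Its receptor daf-12 fell in both strains (-0.76 and -0.64), the cholesterol transporter gene ncr-1 rose (0.48 and 0.40), the dehydrogenase gene dhs-16 fell in lin-52 (-0.86), and strm-1, a sterol methyltransferase gene, was higher in lin-52 without UV (0.56, adjusted p = 0.0273). Of 8 genes for heme uptake and transport 6 were tested. Of these, 4 rose and 1 fell in N2 (36.6% and 37% of all tested genes), and 3 rose and none fell in lin-52 (33.1% and 33.5%). mrp-5, the intestinal heme exporter, rose by 0.56 and 0.37.

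Regulators of xenobiotic and oxygen responses mostly rose in N2. Of 14 tested, 10 rose and 2 fell in N2, against 36.6% and 37% of all tested genes. In lin-52, 6 rose and 1 fell, against 33.1% and 33.5%. nhr-8, a nuclear receptor of xenobiotic resistance, rose by 0.97 in N2 and 0.76 in lin-52, and skn-1, the factor of oxidative and xenobiotic stress, by 0.63 and 0.51. nhr-80 rose by 0.84 and 0.63, and nhr-176, the receptor that acts on cyp-35D1, by 0.65 and 0.48. Smaller rises were those of nhr-86 and mdt-15 in both strains and of aha-1, nhr-49, daf-16 and pha-4 in N2, between 0.12 and 0.41 in the strains where they were called. egl-9, the oxygen sensor upstream of HIF-1, measured 34.8, 30.9 and 36.8 FPKM in N2 mock, 17.4, 16.97 and 16.6 in N2 UV, 30.1, 31.6 and 29.2 in lin-52 mock and 20.5, 21.1 and 20.3 in lin-52 UV. It fell in both strains and fell less in lin-52, with effects of -0.99 ± 0.06 and -0.54 ± 0.06 and an interaction of 0.44 ± 0.08 (adjusted p = 0.00903). hif-1 fell in N2 with an effect of -0.18 (adjusted p = 0.000295), and nhr-46, a nuclear receptor gene that acts below cyp-36A1, was called in no comparison (45.2 to 55.2 FPKM). Without UV none of the 14 differed between the strains at the threshold. After UV egl-9 was higher in lin-52, and nhr-8, skn-1, nhr-49 and daf-16 were lower, with log2 differences of -0.21 to -0.13. aha-1 had a UV effect that was lower in lin-52 (-0.19, adjusted p = 0.0496).

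In the eicosanoid route, which supplies and removes the lipids that CYP-33E2 and CYP-29A3 act on, 10 of 11 genes were tested. With UV 5 rose and 4 fell in N2, against 36.6% and 37% of all tested genes. In lin-52, 5 rose and 5 fell, against 33.1% and 33.5%. The desaturase genes fat-2, fat-3, fat-4, fat-5 and fat-6 rose in both strains, from 0.33 for fat-4 in lin-52 to 2.85 for fat-5 in N2. fat-1, the omega-3 desaturase, and the elongase genes elo-1 and elo-2 fell in both strains. The epoxide hydrolase gene ceeh-1, whose product clears P450 epoxides, fell with effects of -0.37 in N2 and -0.69 in lin-52, and ceeh-2 fell in lin-52 (-0.24). fat-1 and elo-2 fell less in lin-52 (interaction 0.39 and 0.36, adjusted p = 0.000425 and 0.0339), and ceeh-1 fell more (-0.31, adjusted p = 0.0391). Of 11 DAF-16 output genes 9 were tested, 5 rose and 1 fell in N2, and 4 rose and 1 fell in lin-52, against the same shares of all tested genes. mtl-1, a metallothionein gene of that list, rose by 2.73 in N2 and 1.60 in lin-52, a difference of -1.13 (adjusted p = 0.0076).

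Tissue markers moved with UV as well. The counts below stand beside 36.6% higher and 37% lower of all tested genes in N2, and 33.1% and 33.5% in lin-52. Of the 15 genes of the intestine list opt-2 was not matched in the table, act-5 was listed at 0 in every library, end-3 was below 1 FPKM throughout, and vha-6 was listed at 0 in N2 UV 1 alone, a 0 that can be a failed estimate as in act-5. Of its 12 tested genes 5 rose and 5 fell in either strain, and without vha-6 the list summed to 6050 to 6390 FPKM in N2 UV and 6030 to 6200 in lin-52 UV. The moulting list, genes that rise and fall with each larval moult, summed to 422 to 522 FPKM in N2 mock and 438 to 618 in lin-52 mock, but to 19.9 to 23.8 in N2 UV and 19.8 to 31.2 in lin-52 UV, with 7 of 8 tested genes lower and a median of -4.27 in N2 and -4.15 in lin-52. Of the 8 muscle genes 6 fell and 1 rose in either strain. Of the 8 neuron genes 5 fell and 2 rose in N2, and 6 fell and none rose in lin-52. Of 8 tested hypodermis genes 4 fell and 2 rose in N2, and 3 fell and 2 rose in lin-52. Among 7 tested pharynx genes 3 fell and 2 rose in N2, and 1 fell and 3 rose in lin-52. Of 9 tested germline genes 6 rose in N2 and 5 in lin-52, and none fell. Vitellogenin genes, made by adults, were below 1 FPKM in every library. The part of larval timing and tissue make-up in the UV effects of the P450 genes was not tested.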

How the data were processed

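The authors depleted ribosomal RNA, made stranded libraries, mapped paired-end reads with Tophat, and deposited Cufflinks FPKM values per Ensembl gene; the genome build is not given in the sources used here. The authors tested genes with DESeq2. FPKM were divided by median-ratio size factors over 14130 protein-coding genes above 0 in every library, and log2(FPKM + 0.5) was fitted in limma 3.58.1 (R 4.3.3) with 4 group means and an intensity trend over 12 libraries, for genes whose mean reached 1 FPKM. P-values were adjusted over 12913 genes and called below 0.05. Size factors lay between 0.969 and 1.05, and ribosomal RNA made up 11.6 to 22.6% of FPKM. On simulated data for UV in N2 (12913 genes, 5 runs), 31.2% of 1.2-fold, 71.2% of 1.5-fold and 87.2% of 2-fold changes were recovered, with 4.9% false calls. Only 250 genes per fold size were changed over the 5 runs, while 73.6% of tested genes were called in the data. The recovered shares therefore do not carry over to the real comparison.

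Named with values were genes called in any of the 5 comparisons (every library for the up to 8 largest changes of each), the 5 highest genes, and untested genes reaching 1 FPKM. The members and gene lists were chosen with earlier results of these data known. Replicate numbers were not taken as pairing samples, since of 13 same-numbered pairs only 3 had deviations correlated above 0.1. Gene names came from Ensembl release 115 (WBcel235), which held 45990 of the 46245 identifiers. Alternatives changed scaling, pseudocount, low-value filter, treatment of zeros, trend, replicate block, libraries in the fit, and left out each library.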

Additional observations from a re-analysis of the deposited data

Results flagged for a closer look

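In 8 P450 genes the UV effect in lin-52 differed from that in N2 by the interaction test (limma, adjusted p below 0.05 over all tested genes). As log2 differences, lin-52 minus N2, the values were -0.81 for cyp-37B1, -0.61 for cyp-32A1, -0.57 for cyp-14A5, -0.515 for cyp-33C8, -0.49 for cyp-43A1, -0.42 for cyp-13A5, -0.36 for cyp-36A1 and -0.35 for cyp-37A1. cyp-13A5, cyp-14A5 and cyp-33C8 were called under every alternative. With 3 libraries in each group, no single library could be judged as an outlier.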

How the results depend on the processing

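Of 97 calls on P450 genes over the 5 comparisons, 76 held under every alternative and 21 were lost in at least 1. By comparison, 3 of 4 were lost somewhere for lin-52 against N2 without UV, 6 of 15 after UV, 2 of 35 for UV in N2, 5 of 35 for UV in lin-52 and 5 of 8 for the interaction. No call reversed. Leaving out single libraries gave 1 to 5 called genes without UV, 10 to 16 after UV, 33 to 37 for UV in N2, 31 to 36 for UV in lin-52 and 4 to 11 for the interaction. The shares of all tested genes changed as well. Without UV, 2.7 to 3.81% were higher and 0.674 to 2.32% lower, and after UV 8.94 to 14.3% and 10.7 to 16.1%. For UV in N2 they were 34.6 to 36.7% and 35.2 to 37.3%, and for UV in lin-52 31.2 to 33.1% and 31.5 to 33.4%. For the interaction they were 2.87 to 8.15% and 3.5 to 8.78%. A filter at a mean of 5 FPKM left 29 genes tested and 21 called for UV in N2 and 21 for UV in lin-52. Of all tested genes 38.2% were then higher and 40.7% lower in N2, and 35.3% and 37.6% in lin-52. Fitting only the libraries compared gave 2 genes without UV, both higher, against 2.9% higher and 1.18% lower of all tested genes. The interaction gave 5 with quantile normalization and 5 with no filter, all lower. The all-gene shares lower were 4.71% and 3.72%, and those higher 5.96% and 2.89%. The replicate block gave 2 genes without UV, 12 after UV, 37 for UV in N2, 34 for UV in lin-52 and 3 for the interaction. With the block, the shares of all tested genes higher and lower were 2.55% and 0.658% without UV and 9.86% and 11.2% after UV. They were 35% and 35.4% for UV in N2, 32.3% and 32.9% for UV in lin-52, and 2.88% and 3.6% for the interaction. The replicate numbers are shared by 13 pairs of libraries whose deviations correlated between -0.164 and 0.251, and they were not read as pairing samples. Causes of these changes were not tested. Small differences can have been missed with 3 libraries in each group. Of simulated 1.2-fold changes in the comparison of UV in N2, 31.2% were recovered. The simulation changed far fewer genes than the 73.6% called in that comparison, and the adjusted p depends on that share. The recovery therefore does not measure what the data could detect.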

Other observations

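The table also holds 6 P450 genes that the annotation gives as pseudogenes, which the report does not count. cyp-31A1 was the highest of them, at 30.1, 26.7 and 26.9 FPKM in N2 mock, 31.1, 31.6 and 32.9 in lin-52 mock, 22.3, 21.1 and 22.9 in N2 UV and 24.9, 27.3 and 25.3 in lin-52 UV. Its mean of 26.9 FPKM was far above that of the protein-coding copies cyp-31A2 and cyp-31A3. In each strain its UV libraries lay below its mock libraries. cyp-25A5 measured 0.8596 to 1.21 FPKM in the mock and 1.46 to 2.29 in the UV libraries, with no overlap between the treatments. The other 4, cyp-13A9, cyp-29A1, cyp-34A3 and cyp-35D2, had a mean of at most 0.249 FPKM.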
